A study of Homo sapiens with 48 samples.

Results

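The drugs' effect on gene expression at 6 h was set against their effect at 2 h in cells labelled BEAS-2B, an immortalised human bronchial epithelial cell line. The comparison took 24 of the 48 arrays of the series, 12 at 6 h and 12 at 2 h. Confluent cells had received GS-5759 (10 nM), Ind/GSK (indacaterol and GSK256066 together, 10 nM of each) or vehicle, with 4 arrays for each treatment and time. The arrays at 1 h and 18 h entered the fit of the spread and are quoted only where named. All cells had been grown in serum-free keratinocyte medium with epidermal growth factor and pituitary extract, and in the plain medium before treatment. The samples were taken by their labelled treatment and time and not by any measured value. The response of a gene is the mean log2(signal + 16) over the arrays of both drugs minus that of the vehicle arrays at the same time. The change is the response at 6 h minus the response at 2 h, so a positive change means that the drugs held the gene higher, relative to vehicle, at 6 h. Changes are given ± SE, with 8 drug arrays and 4 vehicle arrays at each time. A gene is called at an adjusted p under 0.05 (limma, Benjamini-Hochberg over all tested genes).

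Indacaterol is a long-acting agonist of the β2-adrenoceptor, which couples through Gs to adenylyl cyclase and raises cyclic AMP (cAMP). GSK256066 inhibits phosphodiesterase 4 (PDE4), a family of enzymes that degrades cAMP, and GS-5759 is a single molecule with both actions. In airway epithelium cAMP activates protein kinase A, which phosphorylates the transcription factor CREB, and many CREB target genes are switched on within minutes to hours and then shut off by feedback. That feedback includes desensitisation of the receptor, induction of phosphodiesterases and induction of transcriptional repressors, while other genes respond only after new proteins have been made.

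The 6 arrays numbered replicate 3, 1 in each group, stood apart from the other 18. They held high signals of some basal keratinocyte genes, which the labels do not mention. KRT14, a keratin of basal epithelial cells, read 191000 to 386000 on these arrays and 17.5 to 31.9 on the others. KRT5, its partner in basal cells, read 30500 to 36300 against 108 to 277. KRT15 read 810 to 1230 against at most 30.8, KRT19 2530 to 4520 against at most 118, and the adhesion protein CDH1 853 to 1320 against 173 to 396. Some other basal and squamous markers showed no such gap. Over all 24 arrays ITGA6 read 1930 to 2640, NGFR 12.5 to 60.9, KRT13 8.72 to 33.8 and IVL 33.4 to 57.6. Wider ranges were those of ITGB4 (563 to 2030, median 684), KRT4 (95.7 to 493) and TGM1 (90.6 to 319), which were not compared by replicate number. The labels name the same cell line for all arrays, and the cell source of replicate 3 is in doubt. Each drug group and each vehicle group held 1 such array, and the summed signal of 12 basal and squamous markers ran from 3690 to 428000 with drugs and 4020 to 272000 with vehicle at 6 h, and from 3770 to 355000 with drugs and 3830 to 229000 with vehicle at 2 h. KRT14 alone made up most of the highest sums. The median correlation of an array with its own group was 0.952 to 0.958 for the replicate 3 arrays and 0.98 to 0.988 for the others. Results are therefore given with all arrays and also without replicate 3 in any group. In a bulk extract, fewer cells of a type and less RNA per cell cannot be told apart. Of the other markers, the simple epithelial keratins KRT8 and KRT18 read 4450 to 6970 and 7030 to 9180 over the 24 arrays. The epithelial marker EPCAM read 51.6 to 214. Mesenchymal and fibroblast markers were mixed: VIM read 9900 to 11600, COL1A1 6620 to 11000 and CDH2 1170 to 1990, but COL1A2 81.3 to 205. The leukocyte gene PTPRC read 20.6 to 39, below the signal of 75.42 under which genes were not tested. No member of the ciliated and club cell, fibroblast, leukocyte or endothelial marker lists was called for the change.

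The response changed between 2 h and 6 h for 82 of 14409 tested genes, which is 0.569% of them. The change was positive for 45 genes (0.312%) and negative for 37 (0.257%). At an unadjusted p under 0.05 there were 1117 genes, and the median change over all tested genes was 0.00803. The size reached 2-fold for 5 of the genes with a positive change and 11 of those with a negative one. A fit that took replicate numbers as blocks called 704 genes, 319 positive (2.21%) and 385 negative (2.67%), and these held all 82. Every SE given here comes from the fit without the block, also where a call or adjusted p with the block stands beside it. Without replicate 3, 78 genes were called (0.541%), 19 positive and 59 negative, and 34 of them were among the 82. All 82 changes kept their direction without replicate 3. This was fixed in advance, because each of the 82 had the same sign in all 4 replicate numbers. With the block and without replicate 3, 394 genes were called (2.73%), among them 70 of the 82. Leaving out 1 vehicle array also moved the count of 82 by more than 1.5-fold, to 50, 54 and 44 without replicate 2, 3 or 4 of vehicle at 2 h, and to 48, 45 and 50 without replicate 1, 2 or 4 of vehicle at 6 h.

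The responses at each time show what lay behind these changes. At 6 h the drugs raised 243 genes (1.69%) and lowered 322 (2.23%), and at 2 h they raised 282 (1.96%) and lowered 370 (2.57%). Sorted by these calls, 14 of the 82 genes rose at 6 h and were not called at 2 h, and 27 fell at 2 h and were not called at 6 h. A further 20 rose at 2 h and were not called at 6 h, and 8 rose at both times but less at 6 h. The other groups were 8 genes that fell at 6 h only and 5 genes of other kinds. The comparisons share arrays with the change, so this sorting describes the change and does not test it. With the replicate block the 704 genes sorted otherwise, with 197 lowered at 6 h only as the most numerous, then 167 falls at 2 h not called at 6 h, 106 such rises, 96 late rises, 64 rises that shrank and 74 of other kinds. At 18 h the drugs changed 8 of all tested genes (0.0555%), and none of the 82 was among them. With the block they changed 223 at 18 h (1.55%), and 3 of the 82 were among them: PDE7B and TMEM79, both raised, and C1orf198, lowered. At 1 h they changed 117 of all tested genes (0.812%), and 25 of the 82 were among them, 14 raised and 11 lowered. With the block they changed 959 at 1 h (6.66%), and 38 of the 82 were among them, 16 raised and 22 lowered.

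**Figure D1:**
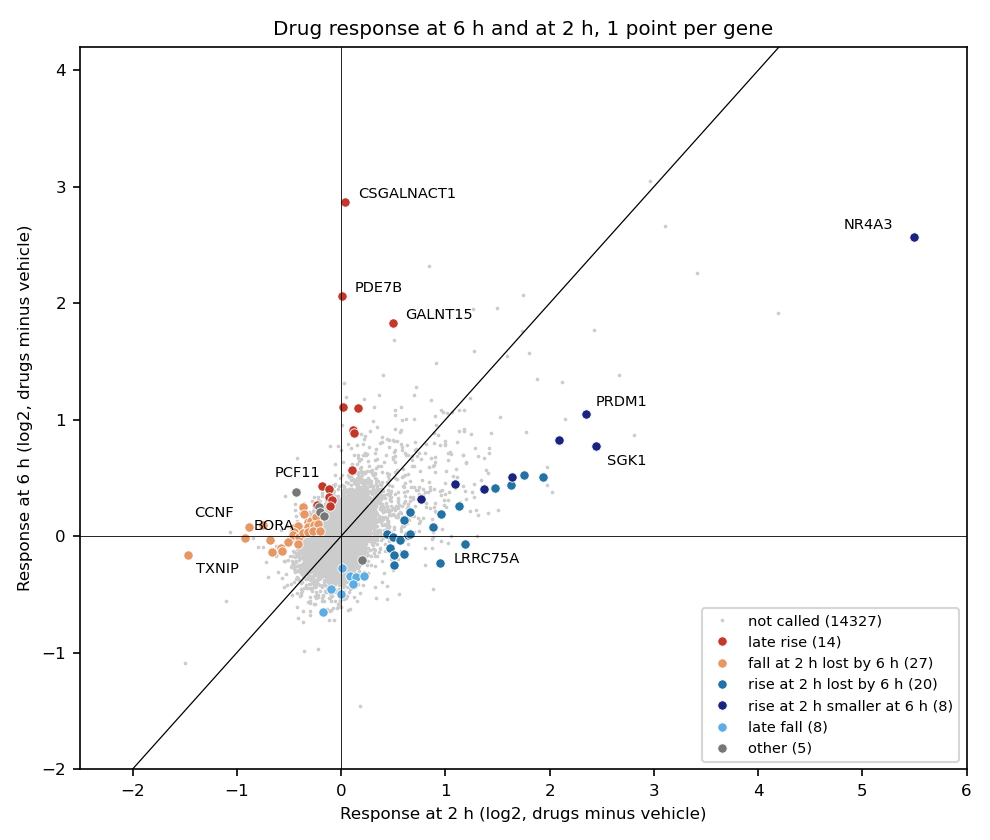
Response at 6 h (vertical axis) against response at 2 h (horizontal axis), both log2 differences of drugs minus vehicle averaged over GS-5759 and Ind/GSK, 1 point per tested gene. Coloured points are the 82 genes called for the change, by pattern, and the diagonal marks equal responses. CSGALNACT1 and PDE7B lie near 0 at 2 h and above 2 at 6 h, and NR4A3 lies at 5.50 at 2 h and 2.57 at 6 h.

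The time course of the groups differed in shape. The late rises had median responses of -0.06, 0.01, 0.73 and 0.08 at 1, 2, 6 and 18 h. The falls at 2 h had medians of -0.26, -0.41, 0.05 and -0.01 at the same times. The rises that were not called at 6 h had medians of 0.19, 0.66, 0.02 and -0.02, and those that only shrank had 1.70, 1.86, 0.64 and 0.09. The late falls had medians of -0.07, 0.05, -0.38 and -0.09. No group had its peak median at 18 h. The genes were chosen by responses at 2 h and 6 h, which favours peaks at those times.

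**Figure D2:**
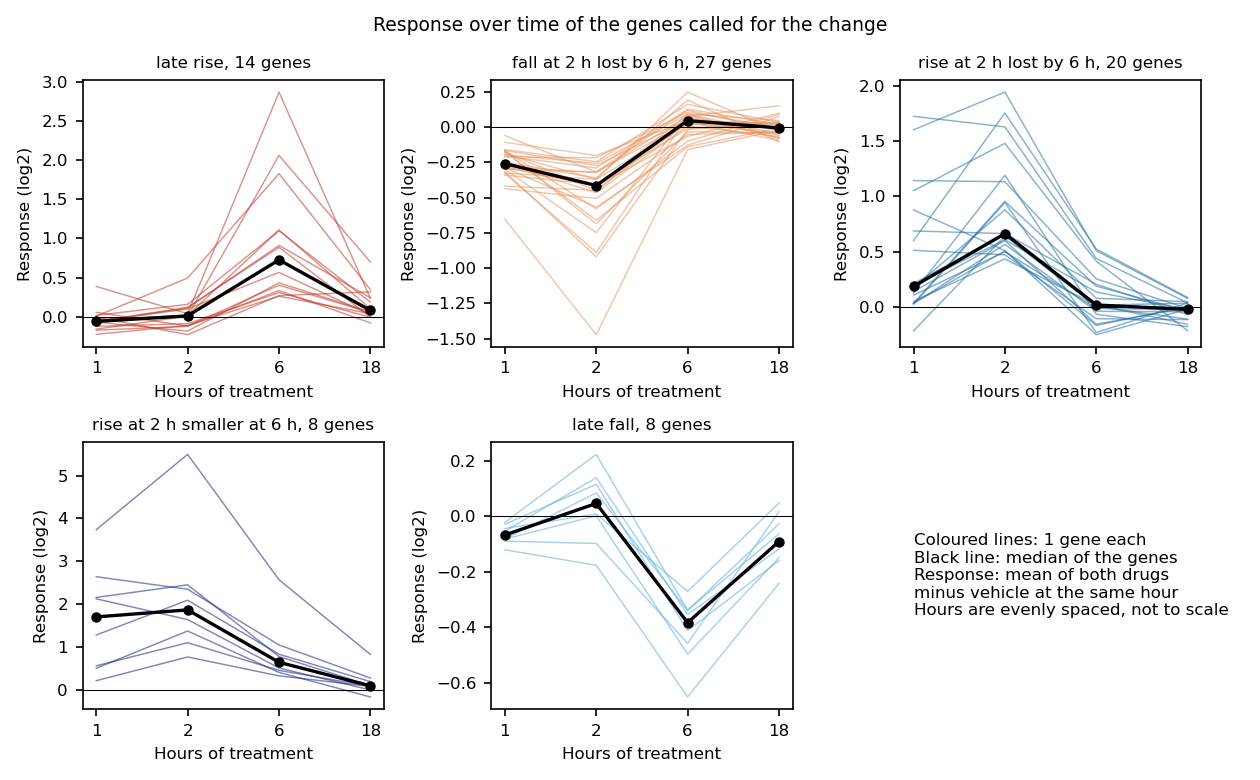
Response (log2, drugs minus vehicle, mean of both drugs) at 1, 2, 6 and 18 h in 5 panels, 1 coloured line per gene and a black line for the median of the panel. Hours are evenly spaced and not to scale, and the vertical axes differ. The median of the late rises stands at 0.73 at 6 h and 0.08 at 18 h.

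Among the late rises, 2 genes stood out by size. CSGALNACT1 encodes an enzyme that adds N-acetylgalactosamine to start and extend chondroitin sulfate chains. At 6 h its signal was 1540, 795, 1070 and 895 with GS-5759 and 1620, 684, 1240 and 909 with Ind/GSK, against 152, 116, 98.8 and 164 with vehicle. The 2 h arrays read 121, 166, 172 and 162 with GS-5759 and 174, 101, 121 and 160 with Ind/GSK, against 149, 150, 181 and 94.8 with vehicle. All 8 drug arrays lay above all 4 vehicle arrays at 6 h, and the groups overlapped at 2 h. The response was 2.87 ± 0.19 at 6 h and 0.04 ± 0.19 at 2 h, a change of 2.83 ± 0.27 (7.09-fold, adjusted p = 1.55e-08). Without replicate 3 the change was 2.55 (adjusted p = 0.000189). It remained called when any single array was left out. A dimmer probe set of the same gene gave a change of 0.16, so the rise was not seen by both probe sets.

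PDE7B encodes a phosphodiesterase that is specific for cAMP and is not a target of PDE4 inhibitors. At 6 h its signal was 595, 393, 417 and 507 with GS-5759 and 565, 420, 484 and 488 with Ind/GSK, against 125, 115, 96.8 and 79.4 with vehicle. The signal at 2 h was 152, 138, 112 and 146 with GS-5759 and 137, 134, 105 and 138 with Ind/GSK, against 144, 136, 90.3 and 164 with vehicle. Again the drug and vehicle arrays were separate at 6 h and overlapped at 2 h. The change was 2.05 ± 0.26 (4.14-fold, adjusted p = 7.24e-06), made of a response of 2.06 at 6 h and 0.01 at 2 h, and it was 2.13 without replicate 3 (adjusted p = 5.41e-08). The response was 0.70 ± 0.18 at 18 h (adjusted p = 0.248), which was called with the block. Both other probe sets of the gene, dimmer than the level for testing, had positive changes of 0.69 and 1.51.

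PDE7B was also the only one of 37 genes with a positive change and a promoter in the RefSeq table (GRCh38.p14) whose window held the full cAMP response element, the letters TGACGTCA. The window ran from 250 bases before to 50 bases after the annotated start, and both strands were searched. Of all tested genes, 343 of 11547 promoters held it (2.97%), as did 1 of 31 promoters of genes with a negative change (3.23%), that of SNRK. The shorter letters TGACG, which lie within the full element, occurred in 11 of 37 (29.7%), 7 of 31 (22.6%) and 32.5% of all. The 250 bases before the start of PDE7B, chr6:135851451-135851700 on the plus strand, are shown 5′ to 3′ with the element, which begins at position -155, in capitals.
PDE7B: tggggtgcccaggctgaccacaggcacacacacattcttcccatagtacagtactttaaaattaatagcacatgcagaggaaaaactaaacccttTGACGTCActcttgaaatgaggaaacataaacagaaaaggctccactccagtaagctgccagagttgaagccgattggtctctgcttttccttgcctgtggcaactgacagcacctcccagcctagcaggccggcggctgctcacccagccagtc

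The remaining late rises were smaller. GALNT15, of the family of enzymes that start mucin-type O-glycans, read 1510, 699, 1030 and 649 with GS-5759 and 1720, 529, 1460 and 629 with Ind/GSK, against 309, 286, 216 and 214 with vehicle at 6 h. Its signal at 2 h was 432, 379, 458 and 323 with GS-5759 and 382, 367, 349 and 339 with Ind/GSK, against 298, 282, 228 and 247 with vehicle. The drug arrays were above the vehicle arrays at both times, by more at 6 h. Its change of 1.33 ± 0.33 (adjusted p = 0.0438) lost its call when any of 19 of the 24 arrays was left out (adjusted p up to 0.125) and without replicate 3 (change 1.23, adjusted p = 0.219). With the replicate block and without replicate 3 its adjusted p was 0.00712. The other probe set above the level for testing gave a change of 1.23.

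PITPNC1, a phosphatidylinositol transfer protein, read 967, 658, 1520 and 587 with GS-5759 and 955, 587, 1600 and 605 with Ind/GSK, against 418, 356, 440 and 364 with vehicle at 6 h. The 2 h arrays read 463, 473, 479 and 485 with GS-5759 and 433, 410, 483 and 454 with Ind/GSK, against 426, 449, 478 and 465 with vehicle. The replicate 3 arrays of both drugs were the highest at 6 h. Its change was 1.09 ± 0.24 (adjusted p = 0.0241) and 0.86 without replicate 3 (adjusted p = 0.0147). It was not called without vehicle at 6 h replicate 2 or 4, or without vehicle at 2 h replicate 3 or 4 (adjusted p up to 0.0709). The scaffold protein TANC2 had a change of 0.94 ± 0.22 (adjusted p = 0.0268), and 0.91 without replicate 3. Leaving out 1 of 5 vehicle arrays ended its call (adjusted p up to 0.102): replicate 1, 2 or 4 at 2 h, or replicate 2 or 3 at 6 h. ITPR1, the inositol trisphosphate receptor that releases calcium from the endoplasmic reticulum, had a change of 0.76 ± 0.16 (adjusted p = 0.00984), and 0.72 without replicate 3. PLXDC2, a transmembrane protein with a plexin-like domain, had a change of 0.80 ± 0.17 (adjusted p = 0.0195). Its adjusted p was up to 0.083 without vehicle at 6 h replicate 1 or vehicle at 2 h replicate 4, and 0.0846 without replicate 3. The deubiquitinase STAMBPL1 had a change of 0.62 ± 0.15 (adjusted p = 0.0359) that was lost without any of 12 arrays (adjusted p up to 0.12) and without replicate 3 (adjusted p = 0.212), and its other probe sets above the level for testing gave 0.57 and 0.00. The other 6 late rises, named after their values were seen, were PRTG, TMEM79, YPEL3 and the transcription factor genes SIX5, ZKSCAN1 and PATZ1, with changes of 0.37 to 0.52. Over all 14 late rises, 6 were called without replicate 3 and 13 with the block and without replicate 3.

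**Figure D3:**
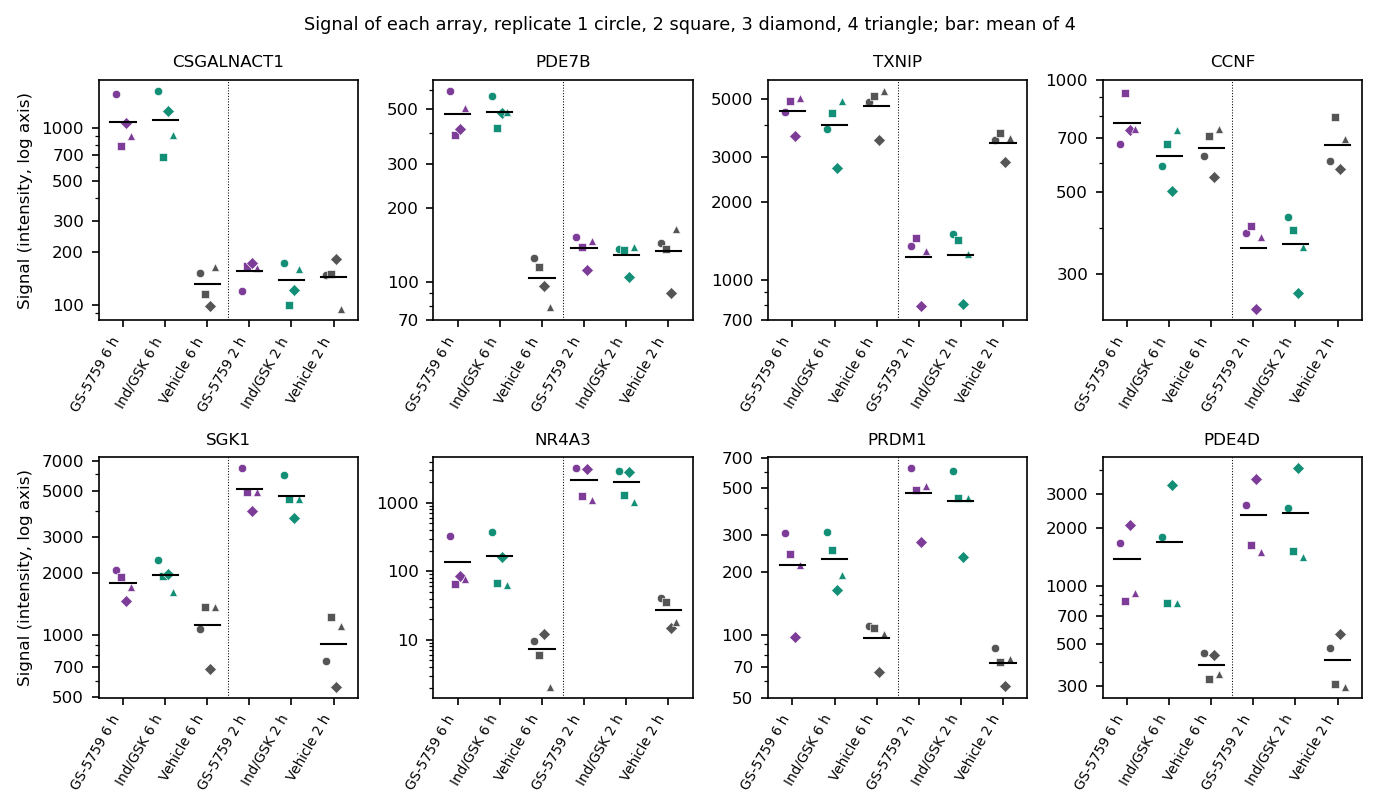
Signal of each array on a log axis for 8 genes, with GS-5759, Ind/GSK and vehicle at 6 h left of the dotted line and at 2 h right of it. Circles, squares, diamonds and triangles are replicates 1, 2, 3 and 4, and bars are means of 4 arrays. The drug arrays of CSGALNACT1 and PDE7B lie above vehicle at 6 h only, and those of TXNIP and CCNF lie below vehicle at 2 h only.

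A group of 27 genes had fallen at 2 h and was not called at 6 h. TXNIP, an α-arrestin that binds thioredoxin and restrains glucose uptake, had the largest change in it. At 6 h its signal was 4490, 4930, 3610 and 5080 with GS-5759 and 3840, 4440, 2720 and 4910 with Ind/GSK, against 4880, 5150, 3480 and 5400 with vehicle. The signal at 2 h was 1360, 1460, 795 and 1300 with GS-5759 and 1510, 1430, 809 and 1270 with Ind/GSK, against 3490, 3700, 2860 and 3550 with vehicle. All drug arrays were below all vehicle arrays at 2 h, and the groups overlapped at 6 h. The response was -0.16 ± 0.19 at 6 h and -1.47 ± 0.19 at 2 h, a change of 1.31 ± 0.27 (2.48-fold, adjusted p = 0.00984). The change was 1.20 without replicate 3 (adjusted p = 0.00183), and the 2 other probe sets gave 1.36 and 1.39. Vehicle arrays had a difference of 0.46 ± 0.22 between 6 h and 2 h (adjusted p = 0.559), and drug arrays one of 1.77. ARRDC4, a related α-arrestin named after its values were seen, had a change of 0.45 ± 0.35 that was called with the block only (adjusted p = 0.93, and 0.00438 with the block). Of 19 tested genes of glucose uptake, glycolysis and thioredoxin-interacting proteins, TXNIP alone was called without the block. Over all tested genes 0.312% had a called positive change, and with the block 2.21% a positive and 2.67% a negative one. With the block the glucose transporter gene SLC2A3 (-1.28 ± 0.35) and PFKFB3, an activator of glycolysis (-0.71 ± 0.19), both named after their values were seen, were called negative, and both were also called without replicate 3.

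Genes of mitosis formed part of the same group. CCNF encodes cyclin F, the substrate receptor of a ubiquitin ligase that acts in G2. At 6 h it read 674, 925, 733 and 736 with GS-5759 and 586, 675, 504 and 734 with Ind/GSK, against 624, 707, 548 and 739 with vehicle. Its signal at 2 h was 389, 405, 242 and 379 with GS-5759 and 428, 395, 267 and 355 with Ind/GSK, against 607, 795, 578 and 696 with vehicle. The drug arrays lay below vehicle at 2 h and overlapped it at 6 h. Its change was 0.96 ± 0.19 (adjusted p = 0.00686), and 0.86 without replicate 3 (adjusted p = 0.0147). BORA, an activator of Aurora A and through it of PLK1, had a response of -0.02 at 6 h and -0.92 at 2 h, and a change of 0.90 ± 0.15 (adjusted p = 0.0011). Without replicate 3 that change was 0.76 (adjusted p = 0.0418). HJURP, the chaperone that loads the centromeric histone CENP-A, had a response of 0.09 at 6 h and -0.75 at 2 h, and a change of 0.84 ± 0.16 (adjusted p = 0.00536). Without replicate 3 that change was 0.72 (adjusted p = 0.0915, and 0.00104 with the block). FAM83D, a protein of the mitotic spindle, had a change of 0.65 ± 0.14 (adjusted p = 0.02). It was not called without vehicle at 2 h replicate 1 or 2, without vehicle at 6 h replicate 3 (adjusted p up to 0.0646), or without replicate 3 in all groups (adjusted p = 0.0663). In BORA, HJURP and FAM83D the drug arrays were all below vehicle at 2 h and overlapped it at 6 h. At 2 h replicate 3 had the lowest CCNF signal of its group under both drugs, and in all 4 genes the change of replicate number 3 was the largest of the 4 numbers.

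Of 27 tested genes on a list of G2/M and mitosis genes, 3 had a called positive change (CCNF, BORA and HJURP) and none a negative one, and the list's median change was 0.22 against 0.00803 over all tested genes. With the block a further member, the mitotic kinase AURKA, named after its values were seen, was called (0.47 ± 0.18, adjusted p = 0.0278 with the block and 0.396 without). Without replicate 3, CCNF and BORA were called and the median was 0.16. Over all tested genes 0.312% had a called positive change. The drugs lowered 3 members at 6 h and 9 at 2 h, against 2.23% of all tested genes at 6 h and 2.57% at 2 h. Among 26 tested genes of DNA replication and the G1/S transition there was no call for the change, with or without the block. Outside the list, and named after their values were seen, the replication kinase subunit DBF4 (0.52 ± 0.13), the mitotic phosphatase regulator CDCA2 (0.48 ± 0.11) and WEE1, the kinase that restrains CDK1 (0.51 ± 0.13), were in the same group. Without replicate 3, DBF4 had a change of 0.37 (adjusted p = 0.468), CDCA2 one of 0.41 (adjusted p = 0.199) and WEE1 one of 0.45 (adjusted p = 0.138).

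The cell cycle homology region (CHR), an element found in promoters of genes of late cell cycle phases, has the core letters TTTGAA. These letters occurred, on either strand, in 10 of 23 promoters of the genes that fell at 2 h and were not called at 6 h (43.5%), against 1208 of 11547 promoters of all tested genes (10.5%). The 10 were BORA, C5orf34, CCNF, DBF4, HJURP, MED7, METTL18, MTNAP1, WDCP and WDR5B. In the genes with a negative change they occurred in 5 of 31 (16.1%). The genes were chosen by the data, and the shares are a description without a test. The 250 bases before the start are shown for the 3 mitotic genes, 5′ to 3′ on the gene's strand, with these letters in capitals. The coordinates are chr16:2429197-2429446 (plus strand, letters from position -85), chr13:72727673-72727922 (plus strand, from -177) and chr2:233854536-233854785 (minus strand, from -111).
CCNF: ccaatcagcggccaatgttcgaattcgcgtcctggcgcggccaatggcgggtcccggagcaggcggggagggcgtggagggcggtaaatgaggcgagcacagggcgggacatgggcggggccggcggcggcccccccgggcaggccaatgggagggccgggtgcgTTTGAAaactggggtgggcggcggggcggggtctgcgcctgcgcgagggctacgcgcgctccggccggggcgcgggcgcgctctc
BORA: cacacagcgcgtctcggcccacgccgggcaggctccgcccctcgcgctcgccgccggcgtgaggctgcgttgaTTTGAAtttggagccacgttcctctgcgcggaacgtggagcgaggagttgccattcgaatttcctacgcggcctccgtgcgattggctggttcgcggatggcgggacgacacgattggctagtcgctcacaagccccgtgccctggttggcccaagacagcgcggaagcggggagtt
HJURP: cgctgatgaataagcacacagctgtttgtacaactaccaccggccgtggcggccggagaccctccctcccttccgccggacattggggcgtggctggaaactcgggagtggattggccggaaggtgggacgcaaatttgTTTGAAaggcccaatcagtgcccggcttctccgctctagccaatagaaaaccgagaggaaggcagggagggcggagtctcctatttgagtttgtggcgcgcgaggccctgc

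Other genes of this group had smaller changes. ING5, a histone reader of acetyltransferase complexes, had a change of 0.62 ± 0.12 (adjusted p = 0.00352) and 0.55 without replicate 3 (adjusted p = 0.0209), but its other probe sets above the level for testing gave 0.04 and 0.05. The Mediator subunit MED7, the acetyltransferase complex subunit BRD8, the decapping factor DCP1B and the deadenylase complex ligase CNOT4, named after their values were seen, had changes of 0.44, 0.41, 0.52 and 0.39. Other probe sets of CNOT4 above the level for testing gave -0.08 and 0.15. Without replicate 3, 6 of the 27 genes were called, and 18 with the block and without replicate 3.

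Of the genes raised at both times but less at 6 h, 2 were on the list of cAMP-CREB targets, NR4A3 and SGK1. NR4A3 is an orphan nuclear receptor. At 6 h its signal was 326, 65.4, 85.8 and 77.5 with GS-5759 and 376, 66.9, 164 and 63.7 with Ind/GSK, against 9.52, 6.09, 12 and 2.06 with vehicle. The 2 h arrays read 3210, 1270, 3110 and 1080 with GS-5759 and 2880, 1320, 2810 and 1040 with Ind/GSK, against 41.2, 35.4, 14.8 and 18.1 with vehicle. The drug arrays were above vehicle at both times, and replicate 1 of both drugs was the highest at 6 h. The response was 2.57 ± 0.50 at 6 h and 5.50 ± 0.50 at 2 h, a change of -2.93 ± 0.70 (adjusted p = 0.0363). All vehicle arrays read 41.2 or less, below the signal of 75.42 set for testing, so the gene was tested only through its drug arrays. The vehicle signals lie near the added 16, which understates the responses of low genes to the drugs, so the responses and the change have no exact size. The size of the change was not understated: with 1 added in its place it was smaller, -2.16 (adjusted p = 0.515). Leaving out any of 16 of the 24 arrays ended the call (adjusted p up to 0.0954), as did leaving out replicate 3 (-2.47, adjusted p = 0.323, and 0.00184 with the block).

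SGK1, a kinase that raises epithelial sodium uptake, had a steadier change. At 6 h it read 2080, 1920, 1460 and 1710 with GS-5759 and 2310, 1940, 1970 and 1620 with Ind/GSK, against 1070, 1360, 684 and 1380 with vehicle. The signal at 2 h was 6440, 4920, 4000 and 4940 with GS-5759 and 5980, 4580, 3700 and 4590 with Ind/GSK, against 746, 1230, 563 and 1110 with vehicle. At both times each drug array exceeded every vehicle array. The response was 0.77 ± 0.19 at 6 h and 2.45 ± 0.19 at 2 h, a change of -1.68 ± 0.26 (adjusted p = 0.000737). The change was -1.75 without replicate 3 (adjusted p = 0.000143), and it was called when any single array was left out.

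PRDM1, a transcriptional repressor, read 306, 243, 97.8 and 214 with GS-5759 and 310, 254, 164 and 193 with Ind/GSK, against 110, 107, 66.1 and 101 with vehicle at 6 h. Its signal at 2 h was 623, 493, 276 and 514 with GS-5759 and 603, 447, 235 and 448 with Ind/GSK, against 86.1, 73.8, 56.5 and 76.7 with vehicle. The arrays overlapped at 6 h, where replicate 3 of GS-5759 lay below 3 vehicle arrays, and were separate at 2 h. Its change was -1.30 ± 0.32 (adjusted p = 0.0471). The call was lost without any of 18 of the 24 arrays (adjusted p up to 0.134), whereas without replicate 3 in all groups the change was -1.37 (adjusted p = 0.000143). The other probe set above the level for testing gave a change of -1.06, with a response of -0.01 at 6 h and 1.05 at 2 h. It thus showed no rise at 6 h.

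ITPRIP, which binds the inositol trisphosphate receptor, read 1650, 1000, 1080 and 930 with GS-5759 and 2050, 946, 1700 and 867 with Ind/GSK, against 812, 657, 685 and 580 with vehicle at 6 h. The 2 h arrays read 3220, 2370, 2850 and 2260 with GS-5759 and 3030, 2310, 2820 and 2040 with Ind/GSK, against 654, 614, 605 and 515 with vehicle. Drug and vehicle arrays were separate at both times. Its change was -1.26 ± 0.27 (adjusted p = 0.0129), and -1.27 without replicate 3 (adjusted p = 0.106, and 1.02e-05 with the block). Among the 8 genes of this kind, TRIB1, a pseudokinase that recruits the COP1 ubiquitin ligase, had a change of -1.13 ± 0.21 and the transcription factor TBX3 one of -0.97 ± 0.16. Both were called without replicate 3 (-1.20 and -1.02). FOSL2, a member of the AP-1 factors, had a change of -0.65 ± 0.15 (adjusted p = 0.0255). It was not called without replicate 1 or 4 of vehicle at 2 h or at 6 h (adjusted p up to 0.0974). Without replicate 3 in all groups its change was -0.65 (adjusted p = 0.0433).

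A further 20 genes had risen at 2 h and were not called at 6 h. With the replicate block 5 of these 20 were called as raised at 6 h too, but less than at 2 h. Their responses at 6 h ran from -0.25 to 0.53, and those of the 8 genes that only shrank from 0.32 to 2.57. The border between these groups thus depends on the call at 6 h. ZNF331, a zinc finger protein gene, read 1580, 1070, 781 and 896 with GS-5759 and 1530, 909, 795 and 826 with Ind/GSK, against 886, 776, 531 and 676 with vehicle at 6 h. The signal at 2 h was 4390, 2770, 3540 and 2420 with GS-5759 and 3970, 2590, 3690 and 2290 with Ind/GSK, against 835, 879, 630 and 893 with vehicle. The drug arrays were well apart from vehicle at 2 h and overlapped it at 6 h. Its change was -1.43 ± 0.32 (adjusted p = 0.0251), and -1.26 without replicate 3 (adjusted p = 0.129, and 0.000674 with the block). It was not called without vehicle at 6 h replicate 1 or 2, or vehicle at 2 h replicate 3 (adjusted p up to 0.0789). EDN1, the precursor of the vasoactive and bronchoconstrictor peptide endothelin-1, had a response of 0.44 at 6 h and 1.63 at 2 h, and a change of -1.19 ± 0.21 (adjusted p = 0.00219). Of its other probe sets, 1 gave -1.27 and 1 gave -0.26. MAP3K8, a kinase upstream of the MEK and ERK kinases, had a response of 0.41 at 6 h and 1.48 at 2 h, and a change of -1.06 ± 0.19 (adjusted p = 0.00219). REL, a subunit of NF-κB, had a change of -0.80 ± 0.17 (adjusted p = 0.0112), and all its 4 other probe sets were negative (-0.54 to -0.89). BCAR3, an adaptor of focal adhesion signalling, had a change of -0.77 ± 0.12 (adjusted p = 0.000896). Without replicate 3 the changes of EDN1, MAP3K8, REL and BCAR3 were -1.16, -1.12, -0.77 and -0.76, and all were called.

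In the same group, LRRC75A had a change of -1.17 ± 0.21 (adjusted p = 0.00219), and it had the lowest response at 6 h among the named genes of this group (-0.23). PRAG1, a pseudokinase, had a change of -1.25 ± 0.27 (adjusted p = 0.0187). CPEB4, which binds the tails of mRNAs in the cytoplasm and regulates their translation, had one of -1.23 ± 0.29 (adjusted p = 0.0341), with a further probe set at 0.30 and 2 at -1.46 and -1.28. Its call was lost without any of 14 of the 24 arrays (adjusted p up to 0.111). TGIF1, a repressor in TGF-beta signalling, had a change of -0.88 ± 0.20 (adjusted p = 0.0251), and TOB1, an antiproliferative protein that recruits deadenylases, one of -0.46 ± 0.11 (adjusted p = 0.0314). Calls were also lost for PRAG1 without vehicle at 6 h replicate 1 or vehicle at 2 h replicate 4 (adjusted p up to 0.083). They were lost for TGIF1 without any of 5 vehicle arrays (adjusted p up to 0.0749) and for TOB1 without any of 7 arrays (adjusted p up to 0.115). Without replicate 3, LRRC75A, TGIF1 and TOB1 were called (-1.01, -0.79 and -0.44), while PRAG1 had -1.42 (adjusted p = 0.0527) and CPEB4 -1.19 (adjusted p = 0.0525). Without replicate 3, 12 of these 20 genes and 5 of the 8 that only shrank were called, and all 20 and all 8 with the block and without replicate 3.

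CHSY1, a synthase that lengthens chondroitin sulfate chains, had a response of 0.32 at 6 h and 0.76 at 2 h, and a change of -0.44 ± 0.10 (adjusted p = 0.0213). It was not called without vehicle at 6 h replicate 1 or 4 or vehicle at 2 h replicate 2 or 4 (adjusted p up to 0.07), nor without replicate 3 (-0.45, adjusted p = 0.104). CSGALNACT1 had a response of 2.87 at 6 h and 0.04 at 2 h. Of 24 tested genes of glycosaminoglycan and mucin-type glycan synthesis, these were the only 2 called, 1 in each direction. With the block CHST15, a sulfotransferase of chondroitin sulfate named after its values were seen, was called as well (-0.47 ± 0.14, adjusted p = 0.00574 with the block and 0.146 without). The list's median change was -0.04. Over all tested genes 0.312% had a called positive change and 0.257% a negative one, and 2.67% a negative one with the block.

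Late falls and mixed patterns made up the rest, and apart from PCF11 these genes are named after their values were seen. The 8 genes lowered at 6 h only had changes of -0.28 to -0.56. They included MAML2, a coactivator of Notch (-0.56 ± 0.10, and -0.61 without replicate 3), PEAK1, a pseudokinase related to PRAG1 (-0.53 ± 0.12, and -0.44 without replicate 3), and the phosphate transporter SLC20A2 (-0.50 ± 0.11, and -0.54 without replicate 3). Another probe set of SLC20A2 gave 0.35 and another of PEAK1 -0.02, so the sets did not all fall. Of the 8, 3 were called without replicate 3, among them MAML2 and SLC20A2, and 7 with the block and without replicate 3. PCF11, a factor that cleaves and terminates transcripts, was the only one of the 82 genes called in opposite directions at the 2 times, with a response of 0.38 ± 0.11 at 6 h and -0.44 ± 0.11 at 2 h. At 6 h it read 997, 1030, 1400 and 859 with GS-5759 and 963, 888, 1240 and 777 with Ind/GSK, against 799, 806, 857 and 621 with vehicle. Its signal at 2 h was 929, 865, 936 and 871 with GS-5759 and 840, 719, 764 and 762 with Ind/GSK, against 1090, 1080, 1150 and 1210 with vehicle. The arrays overlapped at 6 h, and all drug arrays were below vehicle at 2 h. Its change was 0.82 ± 0.15 (adjusted p = 0.00352), and 0.74 without replicate 3 (adjusted p = 0.00596), and its other probe set gave 0.19.

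Part of a change can come from the vehicle arrays. Between 6 h and 2 h of vehicle, 44 of all tested genes differed (0.305%), and 2 of the 82 were among them. That count ran from 14 to 59 when 1 array was left out and was 99 without replicate 3 and 729 with the block. PCF11 was lower in vehicle at 6 h by -0.56 ± 0.12 (adjusted p = 0.0302), while the drug arrays differed by 0.26. ING5 was lower in vehicle at 6 h by -0.46 ± 0.09 (adjusted p = 0.0151), while the drug arrays differed by 0.16. In 8 of the 82 genes the vehicle difference was larger than that of the drug arrays. They were ACSF3, C2orf42, ING5, PCF11, PPP1R3B, SERTAD3, UTP3 and WDR5B, of which those other than ING5 and PCF11 were named after their values were seen.

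Lists of pathway genes were read in the same way, and members outside the naming rule are named after their values were seen. The SEs remain those of the fit without the block, also for members called only with it. Of 19 tested cAMP-CREB target genes, 2 had a called negative change (NR4A3 and SGK1) and none a positive one. The median change was -0.76, and 16 of the 19 changes were below 0, against 47.6% of all tested genes. Over all tested genes 0.257% had a called negative change. The drugs raised 7 of the 19 at 6 h and 13 at 2 h, against 1.69% of all tested genes at 6 h and 1.96% at 2 h. With the block 10 members were called, all negative, against 2.67% of all tested genes. Besides NR4A3 and SGK1 these were NR4A1 (-1.53 ± 0.40), NR4A2 (-2.27 ± 0.90), BDNF (-1.38 ± 0.38), SIK1 (-1.28 ± 0.47), LINC00473 (-1.16 ± 0.37), RGS2 (-1.15 ± 0.35), NFIL3 (-0.86 ± 0.41) and ATF3 (-0.76 ± 0.69). Without replicate 3, 3 members were called (BDNF, LINC00473 and SGK1) and the median was -0.81. DUSP1, a phosphatase that switches off MAP kinases and a member of this list, had a response of 0.45 ± 0.08 at 6 h and 0.61 ± 0.08 at 2 h, raised at both times, and its change of -0.16 ± 0.12 was not called with or without the block.

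Among anti-inflammatory and bronchoprotective effector genes, 1 of 18 tested members was called, PRDM1, with a median change of -0.15. Over all tested genes 0.257% had a called negative change, and with the block 2.67% a negative and 2.21% a positive one. With the block 4 of the 18 were called, all negative: PRDM1, RGS2, an inhibitor of Gq signalling, CD200, a ligand that restrains myeloid cells (-0.80 ± 0.37), and KLF4, an epithelial transcription factor (-1.08 ± 0.92). Without replicate 3, PRDM1 and CD200 were called. Of 13 tested inflammatory cytokines, chemokines and adhesion molecules none was called. With the block the cytokine IL6 (-1.94 ± 0.59, adjusted p = 0.00329 with the block and 0.179 without) and the chemokine CXCL2 (-1.23 ± 0.50, 0.0011 with the block and 0.458 without) were called. The response of IL6 was 0.87 at 6 h and 2.81 at 2 h. Of 19 immediate early genes 1 was called, FOSL2, and the median was 0.025. With the block ATF3 and KLF4 were also called negative and FOSL1, a further AP-1 member, positive (0.63 ± 0.45). EGR1, an immediate early zinc finger factor, was lowered at both times (adjusted p = 4.42e-05 at 6 h and 5.04e-08 at 2 h), and its change of 0.41 ± 0.24 was not called.

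The cAMP pathway itself, from receptor kinases and cyclases to protein kinase A and phosphodiesterases, had 1 called member of 27 tested, PDE7B, with a median change of -0.02. Over all tested genes 0.312% had a called positive change, and with the block 2.21% a positive and 2.67% a negative one. PDE3A, a further cAMP phosphodiesterase, had a response of 1.39 ± 0.40 at 6 h and 0.41 ± 0.40 at 2 h. Its change of 0.98 ± 0.57 was called with the block only (adjusted p = 0.000615, and 0.783 without). The cyclase gene ADCY7 was called negative with the block (adjusted p = 0.0187). Its change was -0.43 ± 0.45, with the SE of the fit without the block. PDE4D, a target of the inhibitor, read 1660, 835, 2090 and 918 with GS-5759 and 1800, 817, 3360 and 818 with Ind/GSK, against 444, 326, 436 and 347 with vehicle at 6 h. The 2 h arrays read 2630, 1640, 3630 and 1500 with GS-5759 and 2550, 1520, 4110 and 1410 with Ind/GSK, against 473, 309, 559 and 298 with vehicle. Drug arrays were above vehicle at both times, and replicate 3 was the highest of its group under both drugs at each time. The change of PDE4D, -0.66 ± 0.54, was not called with or without the block (adjusted p = 0.949 and 0.0859).

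PDE4B read 454, 476, 477 and 464 with GS-5759 and 455, 442, 672 and 457 with Ind/GSK, against 324, 436, 296 and 416 with vehicle at 6 h. The signal at 2 h was 660, 617, 857 and 602 with GS-5759 and 627, 565, 861 and 558 with Ind/GSK, against 302, 389, 285 and 349 with vehicle. The drug arrays were above vehicle at both times, most clearly at 2 h, and replicate 3 was the highest of its group under both drugs at each time. Its change of -0.58 ± 0.29 was not called with or without the block (adjusted p = 0.658 and 0.151). PDE4A had a change of -0.02 ± 0.09 (adjusted p = 0.999), and its drug and vehicle arrays overlapped at both times.

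Of 14 tested sterol synthesis and uptake genes none was called. All 14 values of the change were below 0 (-0.54 to -0.04, median -0.24), against 47.6% of all tested genes. With the block 7 were called, all negative, against 2.67% of all tested genes: LSS (-0.54 ± 0.15), MVD (-0.54 ± 0.16), SC5D (-0.52 ± 0.22), SREBF1 (-0.40 ± 0.32), MVK (-0.37 ± 0.10), HMGCS1 (-0.22 ± 0.15) and SQLE (-0.20 ± 0.08). All but the regulator SREBF1 encode enzymes of cholesterol synthesis. The drugs lowered 5 members at 6 h and none at 2 h, against 2.23% of all tested genes at 6 h and 2.57% at 2 h. Without replicate 3, MVK and MVD were called, and 5 members with the block. Of 18 tested interferon-stimulated genes none was called, with or without the block. Their median change was -0.38, and their SE ran up to 1.02 (MX2).

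**Figure D4:**
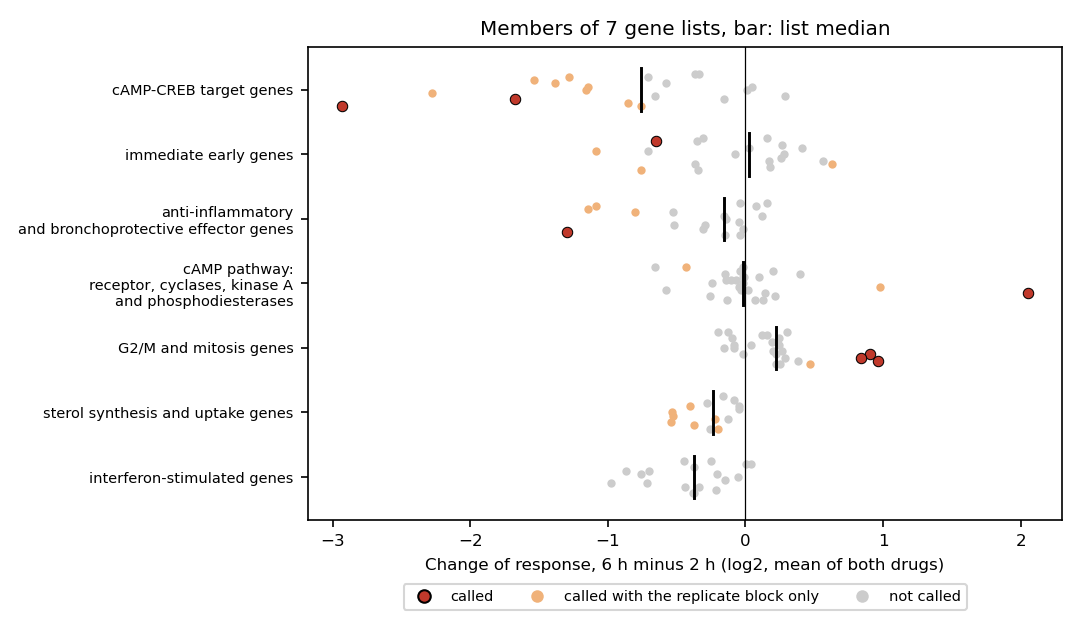
Change of response from 2 h to 6 h (log2, mean of both drugs) of each tested member of 7 gene lists, 1 point per gene, with a bar at the list median. Red points were called, orange points were called only with the replicate block, and grey points were not called. The medians of the cAMP-CREB target genes and of the G2/M genes stand at -0.76 and 0.22.

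The drugs were also taken one at a time. Under GS-5759 the change was called for 27 genes (0.187%) and under Ind/GSK for 16 (0.111%), each with 4 drug arrays per time and the same vehicle arrays, so the counts are not independent. With the block the counts were 307 for GS-5759 and 415 for Ind/GSK. Leaving out 1 array gave 12 to 33 calls for GS-5759 and 2 to 20 for Ind/GSK. Of the 45 genes with a positive mean change, 15 were called with GS-5759 and 6 with Ind/GSK, 5 of them with both. Of the 37 with a negative one, 12 were called with GS-5759 and 10 with Ind/GSK, 7 of them with both. The change of CSGALNACT1 was 2.74 ± 0.31 with GS-5759 and 2.92 ± 0.31 with Ind/GSK, and that of PDE7B was 1.99 ± 0.30 with GS-5759 and 2.11 ± 0.30 with Ind/GSK. SGK1 had -1.79 ± 0.30 with GS-5759 and -1.56 ± 0.30 with Ind/GSK.

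The difference between GS-5759 and Ind/GSK in the change, the 1 pair of treatments that could be compared at matched doses and times, was called for 0 of 14409 genes (0%). At an unadjusted p under 0.05 there were 41 genes, and with the block none was called and 144 had such a p. Both counts are below what chance alone would give at that level. For CSGALNACT1 the difference was -0.18 (95% interval -0.82 to 0.46), for PDE7B -0.13 (-0.72 to 0.47), for SGK1 -0.24 (-0.85 to 0.38) and for CCNF 0.33 (-0.11 to 0.77). Over the 82 genes it ran from -0.41 for MAP3K8 (-0.85 to 0.03) to 0.33 for CCNF. The intervals are those of the fit without the block. They leave room for differences of these sizes, so the test does not show that the treatments act alike. The largest differences among all tested genes were in SVOP (-0.97, -2.15 to 0.22), SLC12A1 (0.87, 0.01 to 1.73) and NR4A2 (-0.84, -2.93 to 1.26), each with an adjusted p of 1.

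**Figure D5:**
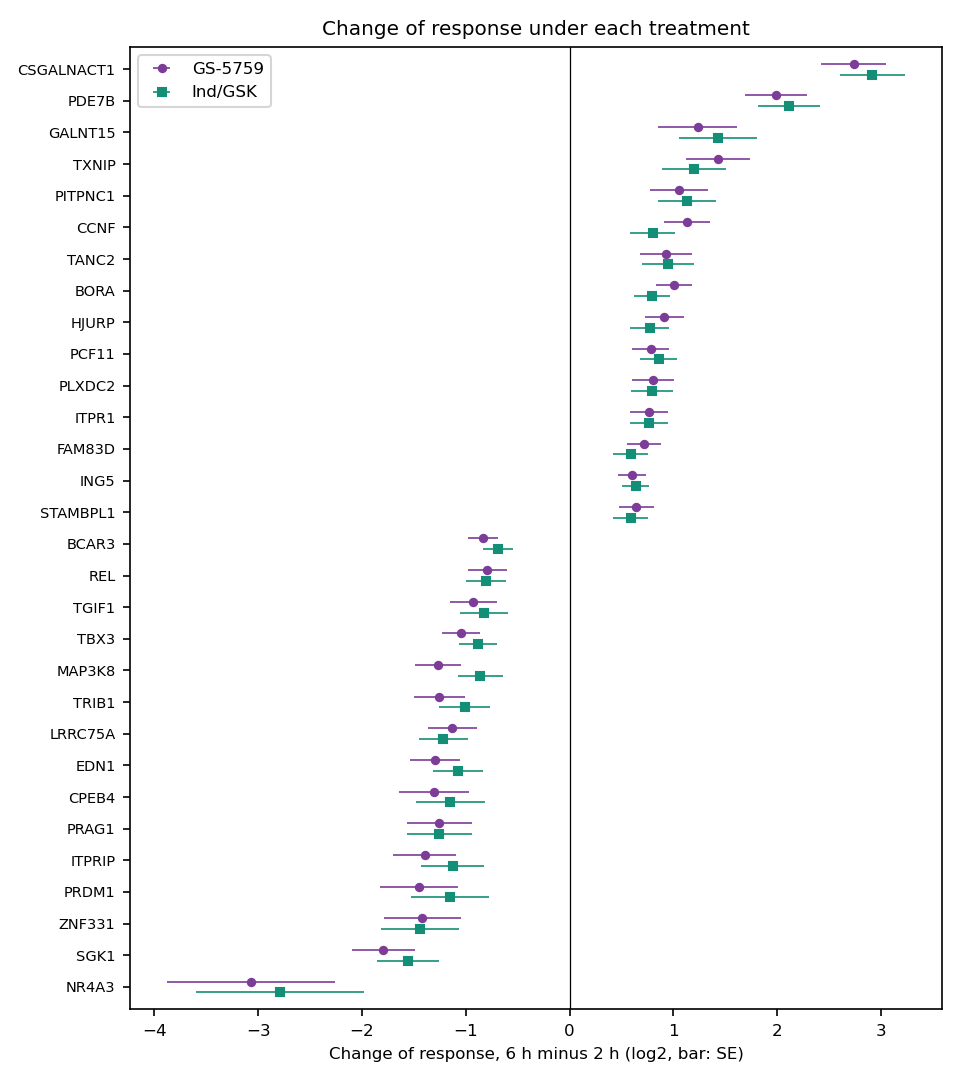
Change of response from 2 h to 6 h (log2) under GS-5759 (circles) and under Ind/GSK (squares), with SE bars, for the 15 largest positive and 15 largest negative mean changes among called genes. Both values lie on the same side of 0 for each gene shown. The genes were chosen by the mean of both values, which share the vehicle arrays, and this favours the same side. For CSGALNACT1 they are 2.74 and 2.92.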

How the data were processed

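RNA from 48 samples labelled BEAS-2B was measured on Affymetrix U133 Plus 2.0 arrays. Per the submitters' processing notes, Expression Console and its PLIER method made the deposited intensity values. Versions and any normalization between arrays are not given in the sources used here. Array medians of log2(signal + 16) were 7.05 to 7.13 at 2 h and 7.03 to 7.15 at 6 h, and no further scaling was applied to the deposited intensities. Of 54675 probe sets, 41091 carried exactly 1 gene symbol. The brightest per gene gave 19775 genes, and the 14409 with a mean above the 40th percentile (log2 6.51) were tested. limma 3.58.1 (R 4.3.3) was fitted to all 48 arrays in 12 groups on log2(signal + 16), with Benjamini-Hochberg adjustment, and was tested on simulated data. The simulation drew independent noise for each array, so it did not cover arrays of the same number that deviate together. The labels do not say that replicates were separate cultures, so p-values measure only the spread between these samples, and their number limits the precision. Same-numbered arrays deviated together in all 60 pairs (r 0.301 to 0.931), so the replicate number was also fitted as a block. The 180 pairs of different numbers ran from -0.851 to 0.761, so some of these deviated together as well. The members and gene lists were chosen with earlier results of these data known. Named genes were the 15 largest called changes in each direction with 1 sign in all replicate numbers, up to 3 called members per list, PDE4A, PDE4B and PDE4D, and the 3 largest differences between drugs. Alternatives were the added constant, the filter, all probe sets, scaling, trend, the arrays fitted, the block and arrays left out.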

Additional observations from a re-analysis of the deposited data

Results flagged for a closer look

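The rule examined 135 groups of 4 values, either the signals of 4 arrays or the changes of the 4 replicate numbers. In 5 of them 1 value lay far from the other 3 (its gap to the nearest of them exceeded Dixon's 95% critical share of the group's range). All 5 were array signals. Chance gives about 1 in 20 such groups, and 4 of the 5 arrays were replicate 3. CCNF read 242 on GS-5759 replicate 3 at 2 h, and 379 to 405 on the others. FOSL2 read 2010 on GS-5759 replicate 3 at 6 h, and 2660 to 2720 on the others. PDE4B read 672 on Ind/GSK replicate 3 at 6 h, and 442 to 457 on the others. PDE7B read 105 on Ind/GSK replicate 3 at 2 h, and 134 to 138 on the others. NR4A3 read 326 on GS-5759 replicate 1 at 6 h, and 65.4 to 85.8 on the others.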

How the results depend on the processing

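A replicate block in the fit gave 704 calls for the mean change (319 positive, 385 negative), 415 with Ind/GSK, 307 with GS-5759, 2644 for the response at 6 h, 2024 at 2 h and 729 for vehicle. With the block and without replicate 3 in every group, an alternative chosen after seeing the data, these were 394 (87 and 307), 192, 191, 1593, 1177 and 655. Leaving out replicate 3 in every group, also chosen after seeing the data, gave 19 positive and 59 negative of 78, 30 with Ind/GSK, 36 with GS-5759 and 99 for vehicle. Centring on the 75th percentile gave 68 positive calls, 29 with Ind/GSK and 41 with GS-5759. Quantile normalization gave 131 calls, 83 positive, 36 with Ind/GSK, 58 with GS-5759 and 70 for vehicle. Fitting the 24 arrays alone gave 39 calls (18 positive, 21 negative), 2 with Ind/GSK, 12 with GS-5759 and 15 for vehicle. All probe sets gave 145 calls, 83 negative. Leaving out 1 array gave 44 to 79 calls (21 to 45 positive, 18 to 38 negative), 2 to 20 with Ind/GSK, 12 to 33 with GS-5759, 367 to 634 at 6 h, 460 to 675 at 2 h and 14 to 59 for vehicle, and 0 to 0 for the difference between drugs. No named called gene reversed under the alternatives run, but several of these could not reverse one. Each such gene had the same sign in all 4 replicate numbers, so leaving out replicate 3 kept its sign. The block, the trend and the fit of the 24 arrays alone left the size of the change as it was. Of 33 such genes 17 were called from the 24 arrays alone, 29 of 33 without the filter and 31 of 33 with 1 added. The cause of these shifts was not tested. The limits are 4 arrays per group, replicate 3 arrays with keratins unlike the rest, vehicle arrays shared by both drugs, and signals near the added 16.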
